A study of Mus musculus with 2 samples.

Results

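Rod phototransduction was followed through 9 genes in single cells of the mouse retina at postnatal day 7. The genes were chosen by symbol, and all 9 were found among the 30905 genes counted. They encode the rod transducin subunits (Gnat1, Gnb1 and Gngt1), the rod phosphodiesterase subunits (Pde6a, Pde6b and Pde6g), the rod cGMP-gated channel subunit Cnga1, the arrestin Sag and the calcium sensor Rcvrn. The control library pooled 2 retinas from 2 control pups. The Mettl3-CKO library pooled 2 retinas from 2 pups of the same litter that carried floxed Mettl3 and Six3-Cre, a Cre driver active in retinal progenitor cells from embryonic stages. The alleles that the control pups carried are not given in the sources used here. Mettl3 encodes the catalytic subunit of the writer complex of N6-methyladenosine, a modification inside mRNA. The study asked how its loss changes late retinal development.

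In a dark-adapted rod, cyclic GMP holds a cation channel of the outer segment open. In light, transducin is activated and relieves the inhibition of the phosphodiesterase, and the fall in cyclic GMP closes the channel. Arrestin and a recoverin-controlled kinase then end the response. In mouse, rods are largely born around birth, and the outer segments are still forming at the end of the first postnatal week. The factors CRX, NRL and NR2E3 direct rod gene expression.

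Each group held 1 library, so there was no replicate check, and differences between the libraries cannot be told apart from differences between the pools. Levels are UMIs (unique molecular identifiers, each a captured transcript) per 1000000 nonmitochondrial UMIs of a group of cells, written CPM. All ranges are exact 95% intervals and cover counting error only. They hold neither the spread between pups nor that between cells. The control matrix gave 3994 complete cells with 22181683 UMIs and the Mettl3-CKO matrix 3109 complete cells with 20830028 UMIs, with medians of 4766 and 5441 UMIs per cell. There were 5 cell barcodes in common between the libraries. Clusters were built without the 9 genes and named from other markers. Rod-like cells, with 1381 control and 825 Mettl3-CKO cells, joined clusters 0, 1 and 9. As a measure of free RNA and mixed droplets, nonrod-like cells (microglia, amacrine, Müller glia, dividing progenitor and neurogenic cells) held 1005 control and 993 Mettl3-CKO cells. Nrl, a marker used for the rod name, stood at 2242 and 2123 CPM in rod-like cells of the control and Mettl3-CKO library. It stood at 68.0 and 102 CPM in nonrod-like cells. Because Nrl helped to name the clusters, these levels describe the class and are no separate check of its label. Mettl3 itself stood at 43.0 CPM (37.6 to 48.9) in control and 32.2 CPM (26.9 to 38.2) in Mettl3-CKO rod-like cells, a log2 ratio of -0.42 (-0.74 to -0.10). A count at the 3′ end need not fall where a deletion spares that end, so this value is a weak check of the labels. The sexes of the pools also differed by Xist, the RNA of the inactive X chromosome. It was seen in 381 of 575 Mettl3-CKO rod-like cells of at least 4000 UMIs and in 12 of 837 such control cells.

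The 9 genes together made up 1.33% of rod-like UMIs in the control library and 1.16% in the Mettl3-CKO library. Of these genes, 8 were at least 10-fold higher in rod-like than in nonrod-like cells of both libraries. Among all genes tested, 2.73% passed the same limit in the control library and 1.96% in the Mettl3-CKO library. Gnb1, which serves G protein signalling in many cell types, was the exception, with folds of 5.85 (5.60 to 6.10) and 5.71 (5.47 to 5.97). For the other 8 genes, the fold in the control library ran from 22.5 for Gnat1 to 65.2 for Pde6a, and both of these rest on under 10 nonrod-like UMIs. In the Mettl3-CKO library the folds ran from 15.1 for Rcvrn to 31.0 for Gnat1, and they were lower than in the control library for each of the 8 genes but Gnat1. Cone-like, precursor-like and unnamed cells are outside the nonrod-like class, so the 10-fold limit does not cover them. Over control cone-like cells, the folds were only 1.4 for Gngt1, 1.9 for Sag, 6.4 for Pde6b and 5.6 for Cnga1. In the Mettl3-CKO library they were 1.3, 1.7, 2.5 and 3.1. The same caution applies below, where promoters of these genes are set beside that of Gnb1.

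The transducin genes differed widely in level. Gnat1, the alpha subunit that carries GTP to the phosphodiesterase, lies on the minus strand at chr9:107674474-107679712 (GRCm38, as are all positions here). It stood at 25.2 CPM (21.1 to 29.8) in control and 27.3 CPM (22.5 to 32.9) in Mettl3-CKO rod-like cells, from 136 and 112 UMIs. The ranges overlapped, and the log2 ratio of Mettl3-CKO over control was 0.12 (-0.26 to 0.49). Gnb1, the beta subunit at chr4:155491361-155559269 on the plus strand, overlaps the pseudogene Gm13171 on the other strand. Its level was 2149 CPM (2110 to 2188) in control and 1927 CPM (1885 to 1970) in Mettl3-CKO cells, a log2 ratio of -0.16 (-0.20 to -0.12). Gngt1, the rod gamma subunit at chr6:3993792-3997436 on the plus strand, stood at 2994 CPM (2948 to 3040) and 2383 CPM (2336 to 2431). Its log2 ratio of -0.33 (-0.37 to -0.29) was the lowest of the 9 genes. Thus beta and gamma were lower in the Mettl3-CKO library, while for alpha the counts left the direction undetermined.

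The phosphodiesterase genes did not share a direction. Pde6a, a catalytic subunit, lies at chr18:61220315-61289924 on the plus strand and overlaps the pseudogene Rps2-ps10. It stood at 36.5 CPM (31.6 to 42.0) in control and 40.0 CPM (34.1 to 46.6) in Mettl3-CKO cells, a log2 ratio of 0.13 (-0.18 to 0.44). Pde6b, the other catalytic subunit, lies at chr5:108388391-108432397 on the plus strand. Its level was 758 CPM (735 to 782) and 638 CPM (614 to 663), a log2 ratio of -0.25 (-0.32 to -0.18). Pde6g, the inhibitory subunit at chr11:120447605-120453500 on the minus strand, stood at 2166 CPM (2127 to 2205) and 2100 CPM (2055 to 2144), with a log2 ratio of -0.04 (-0.085 to -0.0044). The sign of this ratio turned without the low-depth cluster 9 (0.01) and with equal weight for clusters 0, 1 and 9 (0.03). The paired catalytic subunits thus differed strongly in UMI level, Pde6a being far below Pde6b in both libraries. Levels of different genes count molecules and are not divided by length, and they also depend on how well each 3′ end was captured, which was not tested.

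The channel, arrestin and calcium sensor genes went different ways. Cnga1, at chr5:72603696-72644275 on the minus strand and overlapping the pseudogene Gm5297 on the same strand, stood at 357 CPM (341 to 373) in control and 384 CPM (365 to 403) in Mettl3-CKO cells. Its log2 ratio of 0.10 (0.0071 to 0.20) turned sign under other ways of choosing rod-like cells, for example to -0.04 among cells of at least 2000 UMIs. Sag, which helps to end the light response, lies at chr1:87803680-87845158 on the plus strand and was the highest of the 9 genes, with 4455 CPM (4399 to 4512) in control and 3666 CPM (3607 to 3725) in Mettl3-CKO cells. Its log2 ratio was -0.28 (-0.31 to -0.25). Rcvrn, a calcium-binding protein that tunes how long the light response lasts, lies at chr11:67695326-67703333 on the plus strand inside Glp2r, a gene of the other strand. It stood at 385 CPM (368 to 402) in control and 425 CPM (405 to 445) in Mettl3-CKO cells, a log2 ratio of 0.14 (0.05 to 0.23).

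**Figure D1:**
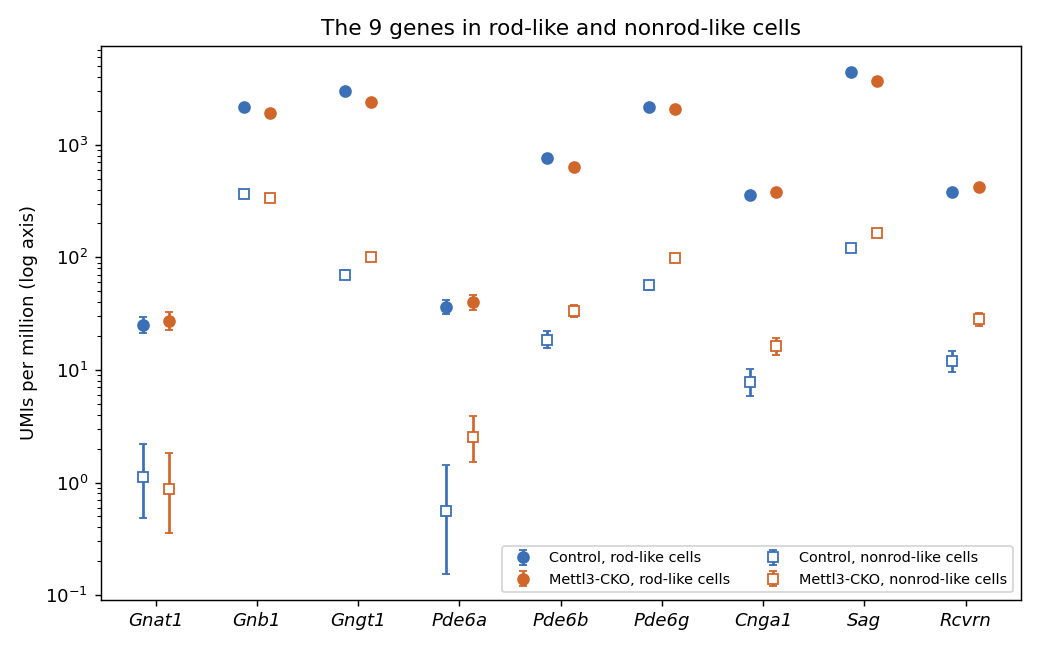
Level of each of the 9 genes in CPM (log axis) in rod-like cells (filled circles) and nonrod-like cells (open squares) of the control (blue) and Mettl3-CKO (orange) library, with exact 95% counting intervals. Gnb1 has the smallest gap between rod-like and nonrod-like cells, and the Gnat1 and Pde6a levels in rod-like cells are the lowest at 25.2 to 40.0 CPM.

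Read together, 5 of the 9 ratios had intervals below 0, 2 had intervals above 0 and 2 held 0. Among the 8347 genes with at least 100 UMIs in rod-like cells, 9.2% had intervals below 0 and 10.7% above 0. Intervals narrow as UMIs grow, and among the 207 genes with at least as many rod-like UMIs as Pde6b these shares were 36.2% and 33.3%. The median log2 ratio of the 9 genes was -0.04, beside 0.0014 over the same 8347 genes. None of the 9 genes was past 1.5-fold in either direction, where 1.69% of the tested genes were past it upwards and 1.19% downwards. By sign alone, Sag, Gngt1, Gnb1 and Pde6b were lower and Rcvrn and Pde6a higher in the Mettl3-CKO library under all 16 alternative settings. The main interval of Pde6a held 0. That of Rcvrn held 0 in several settings, for example -0.042 to 0.14 among cells of at least 2000 UMIs. The rod transcription factor genes Nrl, Nr2e3 and Crx each had a log2 ratio of -0.08 in the same cells. Mettl3-CKO cells with and without Xist were also set against all control cells of at least 4000 UMIs. Sag was at -0.26 (-0.30 to -0.22) with Xist and -0.40 (-0.45 to -0.34) without, lower in both but with ranges that did not overlap. Gngt1 was at -0.30 and -0.36, and Rcvrn at 0.16 and 0.25. Gnb1 was at -0.21 (-0.26 to -0.16) with Xist and -0.02 (-0.09 to 0.05) without, and Gnat1 at 0.11 (-0.34 to 0.56) and -0.10 (-0.78 to 0.53).

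Of 13 other genes of the rod cascade, 10 had at least 100 UMIs, and none of the 10 was past 1.5-fold. Their median log2 ratio was 0.03. Intervals lay below 0 for 3 of them, the photoreceptor kinase gene Grk1 (-0.37), the transducin-binding phosducin gene Pdc (-0.12) and the retinol dehydrogenase gene Rdh12 (-0.19). They lay above 0 for 3 others, the channel beta subunit gene Cngb1 (0.13), the transducin GTPase activator gene Rgs9 (0.19) and the retinoid transporter gene Abca4 (0.42). Among 10 cone counterparts, 5 had at least 100 UMIs in rod-like cells, and the others were too rare. Gngt2 stood at 2625 CPM in control and 2800 CPM in Mettl3-CKO cells, and Gnb3 at 803 and 699 CPM. Of these 5 genes, Opn1sw was the only one past 1.5-fold, at 115 CPM in control and 63.2 CPM in Mettl3-CKO cells.

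Promoter sequences were held for 5 of the 9 genes, and they are shown to set the broadly expressed Gnb1 beside 4 genes that were at least 10-fold higher in rod-like cells. They are RefSeq promoters of build GRCm38.p6, 300 bases long, from 250 bases before the RefSeq start to 50 bases after it, written 5′ to 3′ along the gene. The RefSeq start is also the start of the GENCODE gene for Sag and Gnb1. It lies 216 bases inside the GENCODE gene for Gngt1 and 1523 bases inside it for Cnga1, and for Pde6b it lies upstream, at 108388373 against 108388391. They cover chr6:3993758-3994057 for Gngt1, chr5:108388123-108388422 for Pde6b, chr5:72642703-72643002 for Cnga1 on the minus strand, chr1:87803430-87803729 for Sag and chr4:155491111-155491410 for Gnb1. Capitals mark TAATCC or its reverse complement GGATTA, the core bound by CRX and OTX2, and TGCTGA or its reverse complement TCAGCA, the core of sites bound by NRL and other Maf proteins.
Gngt1: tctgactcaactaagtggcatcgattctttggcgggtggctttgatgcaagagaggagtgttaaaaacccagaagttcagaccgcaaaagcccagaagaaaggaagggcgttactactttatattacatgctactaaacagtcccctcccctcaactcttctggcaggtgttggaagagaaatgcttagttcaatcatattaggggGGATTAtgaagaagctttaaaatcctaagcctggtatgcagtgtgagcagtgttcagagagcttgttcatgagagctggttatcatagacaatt
Pde6b: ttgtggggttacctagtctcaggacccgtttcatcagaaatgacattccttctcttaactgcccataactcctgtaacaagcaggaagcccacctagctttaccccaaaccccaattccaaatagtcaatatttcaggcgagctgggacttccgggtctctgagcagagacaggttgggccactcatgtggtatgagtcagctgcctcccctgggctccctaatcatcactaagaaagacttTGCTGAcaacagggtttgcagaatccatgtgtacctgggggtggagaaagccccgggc
Cnga1: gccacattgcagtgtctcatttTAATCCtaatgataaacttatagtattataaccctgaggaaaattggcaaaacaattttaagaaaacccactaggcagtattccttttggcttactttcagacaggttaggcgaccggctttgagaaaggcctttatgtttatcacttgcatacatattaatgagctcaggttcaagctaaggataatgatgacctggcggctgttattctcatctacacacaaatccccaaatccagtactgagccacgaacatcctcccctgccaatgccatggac
Sag: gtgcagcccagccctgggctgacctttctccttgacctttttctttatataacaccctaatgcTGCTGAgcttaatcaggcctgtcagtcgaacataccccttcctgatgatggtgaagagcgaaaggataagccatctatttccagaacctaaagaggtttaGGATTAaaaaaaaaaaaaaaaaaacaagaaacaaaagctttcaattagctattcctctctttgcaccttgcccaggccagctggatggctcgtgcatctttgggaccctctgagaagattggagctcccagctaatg
Gnb1: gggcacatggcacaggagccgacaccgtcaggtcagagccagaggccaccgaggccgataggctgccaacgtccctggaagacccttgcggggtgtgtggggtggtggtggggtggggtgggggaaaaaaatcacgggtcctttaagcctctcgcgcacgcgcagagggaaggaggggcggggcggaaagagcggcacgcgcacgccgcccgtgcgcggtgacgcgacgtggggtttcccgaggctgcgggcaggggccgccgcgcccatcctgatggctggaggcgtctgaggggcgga

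The CRX letters were found in 3 of the 5 promoters, in Gngt1 44 bases, in Sag 87 bases and in Cnga1 228 bases before the RefSeq start. The matches in Gngt1 and Cnga1 thus lie inside the gene as GENCODE draws it. The NRL letters were found in 2 of the 5, in Pde6b 8 bases and in Sag 187 bases before the RefSeq start. Sag held both, and Gnb1 held neither. Over 32851 RefSeq promoters of the same length, 7.06% held the CRX letters, 19.5% the NRL letters and 1.36% both. No match of the 2 motifs overlapped another. A match is only a match of letters, and no binding was measured here.

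The 9 genes stood in cluster 1 at different fractions of their cluster 0 level. Both clusters come from a single day, and an order of onset was not tested. Cluster 0, with Cnga1, Sag and Gngt1 among its leading genes, held 654 control and 420 Mettl3-CKO cells. Cluster 1, led by Nr2e3 with Nrl among its leading genes, held 462 and 322 cells. Nrl, Nr2e3 and Crx stood in control cluster 1 at 91.0%, 99.0% and 106% of their cluster 0 level. The 9 genes lay between 6.61% and 61.0% there, and the share of all genes this far below cluster 0 was not computed. Pde6b and Gnb1 were nearest to the cluster 0 level, at 61.0% (56.8 to 65.4) and 50.2% (48.0 to 52.5). Sag was at 34.7%, Pde6g at 31.4% and Gngt1 at 23.7%. Cnga1, at 8.41% (6.73 to 10.4), and Rcvrn, at 6.61% (5.15 to 8.37), were the lowest. Gnat1 (17.2%, 13 UMIs) and Pde6a (24.5%, 26 UMIs) rested on few counts. The Mettl3-CKO library gave Pde6b and Gnb1 as the highest again (58.6% and 58.1%) and Cnga1 and Rcvrn as the lowest (20.4% and 13.3%). Thus within each library the subunits of one complex were at different fractions, as Pde6b and Pde6g were.

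Cells with Nrl but little of the cascade were also found outside the rod-like class. Cluster 3, which met no name, was nearest to rod/bipolar precursors, with the bipolar marker Pcp2 among its leading genes. It had Nrl at 1346 CPM and Crx at 939 CPM in the control library. Gngt1, Pde6g, Sag, Cnga1 and Rcvrn stood there at 0.999% to 1.82% of cluster 0. Sag was at 78.0 CPM (65.0 to 92.9) in control cluster 3, against 121 CPM in control nonrod-like and 79.8 CPM (46.5 to 128) in control microglia-like cells. In the Mettl3-CKO library it was at 99.2 CPM (82.0 to 119) in cluster 3, against 163 CPM in nonrod-like and 27.7 CPM (11.1 to 57.1) in microglia-like cells. The part of free RNA in these levels was not tested. The broadly expressed Gnb1 was the highest in cluster 3, at 8.70% of cluster 0 in control and 8.93% in Mettl3-CKO cells. Pde6b was next, at 5.42% (4.29 to 6.77) of cluster 0 in control and 4.92% (3.57 to 6.61) in Mettl3-CKO cells. Its level in cluster 3 was 49.5 CPM (39.3 to 61.7) against 18.6 CPM (15.6 to 22.1) in nonrod-like cells of the control library, and 38.2 CPM (27.8 to 51.0) against 33.2 CPM (29.3 to 37.5) in the Mettl3-CKO library, where the ranges overlapped. No Pde6a UMI was seen in cluster 3 of either library, and Gnat1 gave 0 and 1 UMIs. Precursor-like cells had Crx at 639 CPM, and the 8 genes without Gnb1 at 1.17% and 1.19% of the rod-like level. Leaving out predicted doublets, these values were 0.826% and 0.828%.

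**Figure D2:**
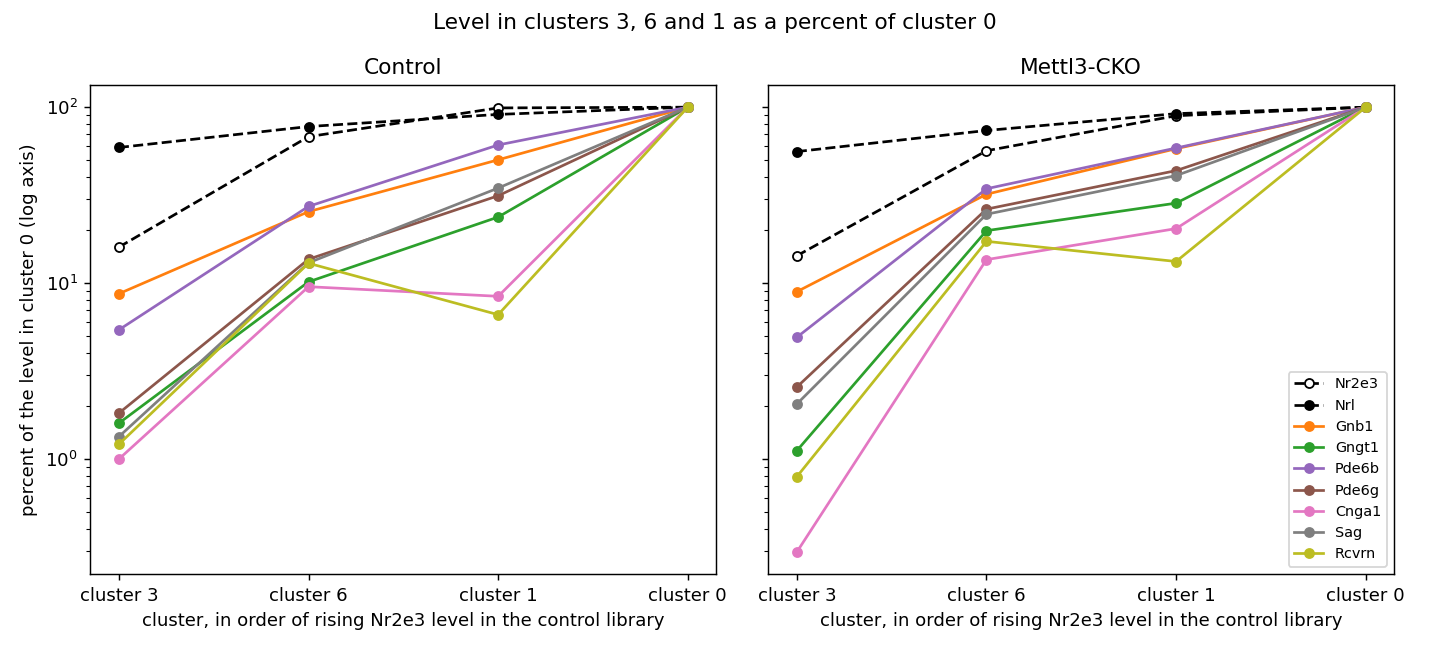
Level of Nrl, Nr2e3 and 7 of the 9 genes in clusters 3, 6 and 1 as a percent of cluster 0 (log axis), in the control library on the left and the Mettl3-CKO library on the right. Clusters 3 and 6 met no name and are outside the rod-like class. In cluster 1 of the control library, Nrl and Nr2e3 are at 91.0% and 99.0% while Cnga1 and Rcvrn are at 8.41% and 6.61%; Gnat1 and Pde6a are left out for low counts.

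The ratio between the libraries also differed by cluster. In cluster 0 it was -0.27 for Sag, -0.24 for Gngt1, -0.24 for Pde6b and 0.19 for Rcvrn on the log2 scale. In cluster 1, Sag (-0.03, -0.10 to 0.03) and Gngt1 (0.02, -0.08 to 0.12) had intervals that held 0, and Pde6b was again lower (-0.29, -0.43 to -0.16). Cnga1 was higher there in the Mettl3-CKO library, with 117 CPM against 46.9 CPM, a log2 ratio of 1.32 (0.95 to 1.69). Rcvrn was at 85.1 CPM against 37.1 CPM (1.20, 0.78 to 1.63), and Pde6g at 1153 CPM against 864 CPM (0.42, 0.32 to 0.51). Without predicted doublets these 3 ratios were 1.13, 1.24 and 0.44, and Sag was at -0.08 (-0.15 to -0.0047), an interval below 0. Most of the Cnga1 and Rcvrn UMIs of cluster 1 came from few cells. The highest 10% of the Mettl3-CKO cells without predicted doublets held 83.4% of Cnga1 and 92.1% of Rcvrn UMIs. In control cells the highest 10% held 100% of both, from 86 and 60 UMIs. The spread between cells is thus far larger than the counting intervals. At 1000 UMIs per cell, 3.97% (2.37 to 6.21) of control and 5.64% (3.38 to 8.77) of Mettl3-CKO cells of cluster 1 had a Cnga1 UMI. For Rcvrn 2.87% and 2.19% did, from 13 and 7 cells. Unthinned, at median depths of 4204 and 4424 UMIs, 9.31% (6.82 to 12.3) and 18.9% (14.8 to 23.7) had a Cnga1 UMI. The unthinned shares for Rcvrn were 8.44% (6.07 to 11.4) and 14.0% (10.4 to 18.25), with overlapping ranges.

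**Figure D3:**
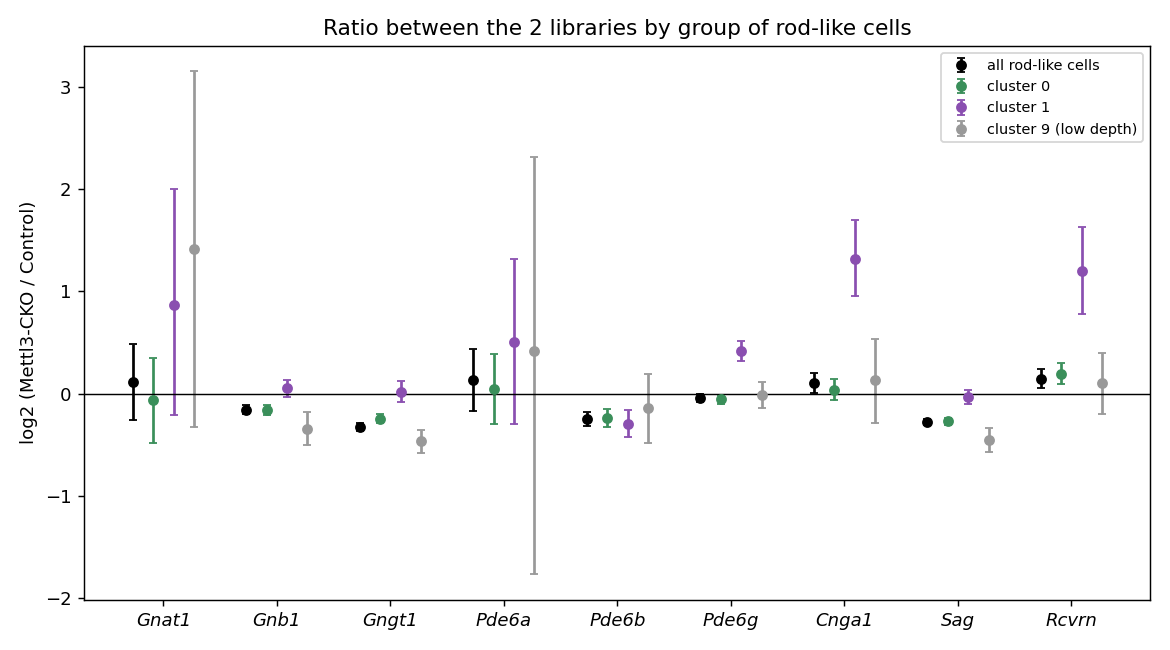
Log2 ratio of Mettl3-CKO over control for each of the 9 genes in all rod-like cells (black), cluster 0 (green), cluster 1 (purple) and the low-depth cluster 9 (grey), with exact 95% counting intervals. Cluster 1 stands above the other sets for Cnga1 (1.32) and Rcvrn (1.20), and wide bars for Gnat1 and Pde6a reflect few UMIs.

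Cluster 9 held 265 control and 83 Mettl3-CKO cells with median depths of 1622 and 2292 UMIs. Mitochondrial UMIs were 21.5% and 16.4% of its UMIs. Gngt1 was at 5893 and 4259 CPM in it, above its cluster 0 levels of 3877 and 3272 CPM, and Pde6g was at 3770 and 3737 CPM. Pde6b and Cnga1 were below cluster 0, at 66.2% and 64.7% in the control library. The cluster took a larger share of the control than of the Mettl3-CKO rod-like cells, and leaving it out moved the log2 ratio of Gngt1 to -0.24 and that of Sag to -0.25.

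Cluster 6, with 204 control and 207 Mettl3-CKO cells, met no name but was nearest to rods. No rod marker was among its leading genes, which held the bipolar marker Pcp2, the cone marker Gngt2 and the precursor marker Prdm1. Here Pde6g (0.89, 0.72 to 1.06), Gngt1 (0.72, 0.56 to 0.89), Sag (0.65, 0.53 to 0.77), Rcvrn (0.61, 0.21 to 1.01) and Cnga1 (0.55, 0.08 to 1.03) were higher in the Mettl3-CKO library, while Nr2e3 was lower (-0.30, -0.36 to -0.24). Predicted doublets were 15.2% and 16.4% of its cells. Without them the levels were lower in both libraries, for Sag 306 and 754 CPM in place of 760 and 1189 CPM. The log2 ratios were larger, with 1.30 for Sag and 2.34 for Gngt1, but control Gngt1 then rested on 67 UMIs. Few cells held most of these UMIs. The highest Mettl3-CKO cells, in the share of cells used above, held 66.6% of Sag and 73.4% of Gngt1 UMIs. They held 100% of Cnga1 and Rcvrn UMIs. In control cells these shares were 52.6% for Sag and 71.6% for Gngt1. They were 100% for Cnga1 and Rcvrn there too, from 3 and 7 UMIs. A shift of the whole cluster was not tested.

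By cell, most rod-like cells held UMIs of several of the 9 genes. Thinned to 1000 UMIs, the median rod-like cell showed 4 of the 9 genes in both libraries, and 82.9% (80.8 to 84.9) of control and 80.6% (77.7 to 83.3) of Mettl3-CKO cells showed at least 3. The median nonrod-like cell showed 0, and 2.96% and 3.34% showed at least 3. Sag was seen in 87.3% (85.4 to 89.1) of control and 83.7% (81.0 to 86.2) of Mettl3-CKO rod-like cells. Pde6b was seen in 49.1% (46.4 to 51.9) and 43.6% (40.1 to 47.1). Gngt1 was seen in 73.6% and 71.1%, Pde6g in 72.9% and 74.4%, Cnga1 in 23.3% and 23.5% and Rcvrn in 20.1% and 20.2%, each with overlapping ranges. Gnat1 was seen in 2.28% and 1.99% and Pde6a in 2.73% and 3.86%. In nonrod-like cells Sag was seen in 7.80% and 7.14%, Gngt1 in 4.25% and 4.72% and Gnat1 in 0.236% and 0.115%. Gnb1 was seen in 81.5% and 82.3% of rod-like and in 29.4% and 26.5% of nonrod-like cells. Thinning left out 64 control and 22 Mettl3-CKO rod-like cells, and 159 and 125 nonrod-like cells. Unthinned, at median depths of 4046 and 4335 UMIs, Sag was seen in 94.2% and 94.8% of rod-like cells, against 21.4% and 17.7% of nonrod-like cells at medians of 7431 and 7722.

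In the nonrod-like classes, the 8 genes without Gnb1 gave a low and uneven signal. In cone-like cells, which are not among these classes, the same 8 genes summed to 94.6% of the rod-like level in control and 95.4% in the Mettl3-CKO library. In nonrod-like cells they summed to 2.58% (2.47 to 2.69) of the rod-like level in control and 4.60% (4.45 to 4.76) in the Mettl3-CKO library. In microglia-like cells, which do not use the rod cascade, they summed to 42 UMIs in 34 control cells and 14 UMIs in 31 Mettl3-CKO cells. These were 1.76% (1.27 to 2.39) and 0.573% (0.313 to 0.962) of the rod-like level. Gnat1, Pde6a and Cnga1 had 0 UMIs in microglia-like cells of both libraries, with upper limits of 17.3 CPM in control and 14.6 CPM in Mettl3-CKO cells. Of the nonrod-like classes, amacrine-like cells stood highest, at 8.58% (7.86 to 9.35) and 22.9% (21.8 to 24.1).

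The signal was held by few cells. In the Mettl3-CKO library 64.0% of nonrod-like cells had none of the 8 genes' UMIs, and the highest 10% of the cells held 91.9% of them. In the control library these shares were 60.9% and 84.2%. In amacrine-like cells of the Mettl3-CKO library the median cell had 1 UMI of the 8 genes and the highest cell 532. The mix was even there, since Gngt1, Pde6b, Pde6g, Cnga1 and Sag all stood between 21.6% and 26.4% of their rod-like level, with Rcvrn at 33.8%. Predicted doublets were 19.4% and 21.2% of the amacrine-like cells. Without predicted doublets the summed level in nonrod-like cells was 1.16% (1.08 to 1.24) in control and 1.62% (1.53 to 1.73) in the Mettl3-CKO library. It was then 5.30% (4.67 to 5.998) and 14.9% (13.8 to 16.1) in amacrine-like cells, still the highest of the nonrod-like classes, and 1.72% and 0.567% in microglia-like cells. In Müller glia-like cells it was 0.980% and 0.791%, and in dividing progenitor-like cells 0.716% and 0.581%. Subtracting each gene's nonrod-like level left the median log2 ratio in rod-like cells at -0.08.

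**Figure D4:**
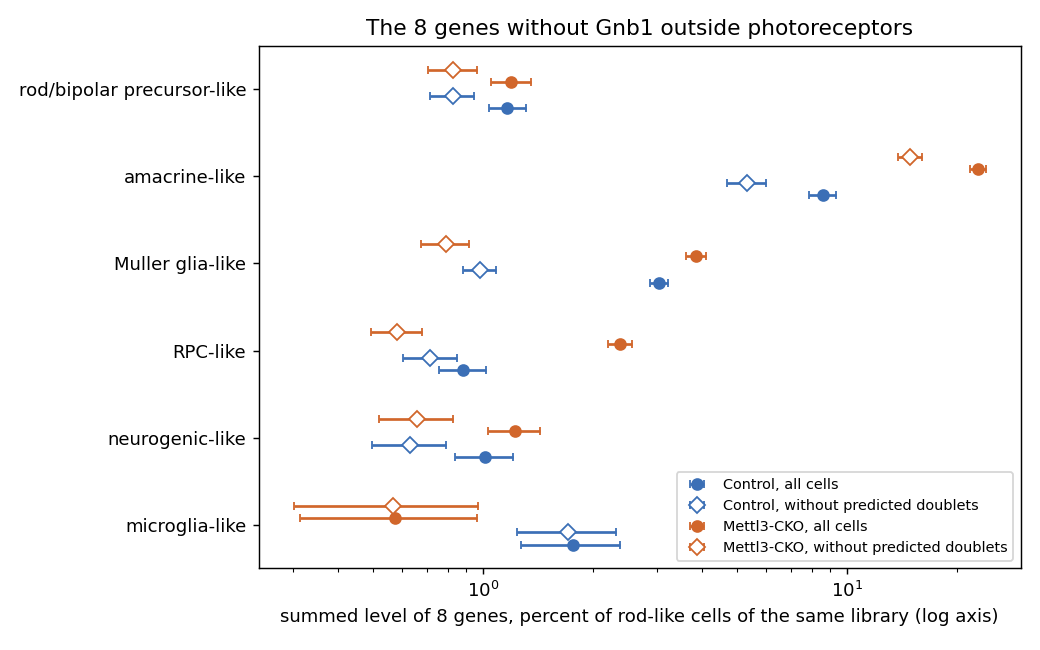
Summed level of the 8 genes without Gnb1 in each class as a percent of rod-like cells of the same library (log axis), for all cells (filled circles) and without predicted doublets (open diamonds), with exact 95% counting intervals. Amacrine-like cells are the highest of the nonrod-like classes, at 8.58% and 22.9%, and at 5.30% and 14.9% without predicted doublets, where values lie between 0.581% and 0.980% in Müller glia-like, progenitor-like (RPC), neurogenic-like and precursor-like cells.

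Gnb1 behaved differently from the other genes in nonrod-like cells. In microglia-like cells it stood at 15.5% (12.1 to 19.6) and 15.2% (11.9 to 19.1) of its rod-like level, where the other 8 genes were at 1.76% and 0.573%. Over all nonrod-like cells it was at 17.1% and 17.5%.

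In cone-like cells, with 94 control and 105 Mettl3-CKO cells, the 9 genes separated further. Rcvrn was at 3003 CPM in control and 2074 CPM in Mettl3-CKO cones, which is 781% (736 to 828) and 489% (461 to 519) of the rod-like level. Pde6g was at 2949 and 2764 CPM, Gngt1 at 2084 and 1859 CPM and Sag at 2341 and 2115 CPM, from 52.6% to 136% of the rod-like level. Gnb1, Pde6b and Cnga1 were low in control cones, at 18.1%, 15.7% and 18.0%, and reached 38.2%, 39.6% and 32.3% in Mettl3-CKO cones. Their log2 ratios were 0.92 (0.74 to 1.10), 1.08 (0.76 to 1.42) and 0.95 (0.50 to 1.41). The rod genes Nrl and Nr2e3 moved with them, at 1.09 and 1.08. The Mettl3-CKO cones had a median of 13003 UMIs against 8482, predicted doublets were 2.86% against 9.57% of cells, and without these the 3 ratios were 1.27, 1.62 and 1.43. The part of mixed droplets in these levels was not tested beyond that. Rcvrn was lower in Mettl3-CKO cones (-0.53, -0.61 to -0.46), as were the cone transducin gene Gnat2 (-0.58) and the cone arrestin gene Arr3 (-1.03).

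**Figure D5:**
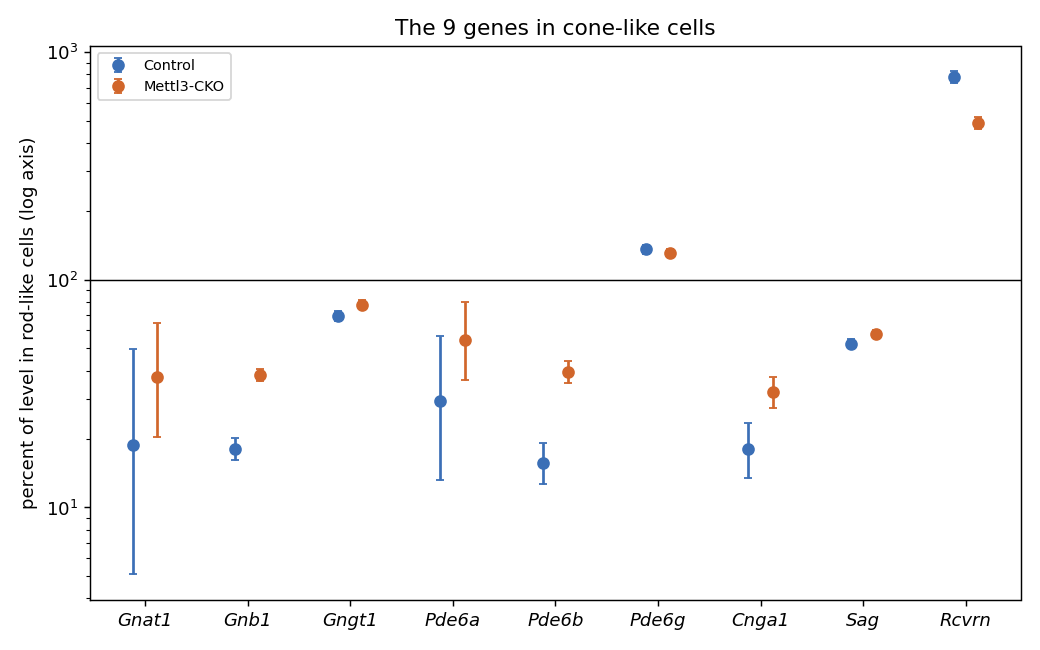
Level of each of the 9 genes in cone-like cells as a percent of rod-like cells of the same library (log axis), control in blue and Mettl3-CKO in orange, with exact 95% counting intervals; the line marks 100%. Rcvrn lies at 781% and 489% and Pde6g at 136% and 132%, and Gnb1, Pde6b and Cnga1 lie at 15.7% to 39.6%.

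Across 16 points, 8 classes in each library, genes whose log2 level was among the most like the mean of the 8 genes without Gnb1 were Nxnl2 (Pearson r of 0.986), Gm45159 (0.984), Fam57b (0.981) and Pitpnm3 (0.977). This is a description, since points of a library share its depth and its free RNA.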

How the data were processed

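Papain-digested retinas were captured with the 10x Genomics 3′ kit. Per the labels and the study's methods, reads were cleaned by the authors using fastp, and Cell Ranger 3.1.0 did the alignment to GRCm38 (mm10) and the counting. Seurat 3.1 is also named in the submitters' processing notes. The deposited values are raw UMI counts per gene and cell. Matrices were read up to their last complete cell (3994 of 5995 control and 3109 of 6992 Mettl3-CKO barcodes); the remaining cells were not analysed here. Of the cells read, 237 and 86 did not meet the filter of the study (over 200 genes, under 20% mitochondrial UMIs) and were kept. The 13 mitochondrial genes, 5.53% and 4.19% of UMIs, were left out of totals.

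The 9 genes, the lists and the tests were chosen with earlier results of these data known. Counts were scaled to 10000 per cell and logged, and 2000 variable genes, without the 9 genes, other rod cascade genes, Mettl3 and sex-linked genes, gave 10 principal components, 20 neighbours and Leiden clusters at resolution 1 (scanpy 1.11.5, leidenalg 0.10.2, scikit-learn 1.9.0, scipy 1.17.1, numpy 2.4.6, Python 3.11.15). A name needed 3 markers at least 1.5-fold higher (20 CPM added) and seen in 20% of a cluster's cells, a list mean of at least 0.5 (log2), and no other list with more markers among the 10 leading genes. These limits were set with clusters in view, so a difference from the study may come from rebuilt names. The automatic limit of Scrublet marked 3 and 5 cells, under 0.5%, and did not work, so the highest 5% of scores (215 and 159 cells) were called predicted doublets and left out only where stated. Ratios compare UMIs summed over cells of 1 library per group, with exact conditional binomial intervals; levels have exact Poisson and shares exact Clopper-Pearson intervals. No p-value was computed. Named were all 9 genes, 13 other rod cascade genes, 10 cone counterparts, Nrl, Nr2e3, Crx and 4 of the most alike genes; further genes were named where a count called for them, and 2 genes that these rules name are not reported here. Intervals were tested on simulated data. Positions are from GENCODE M21 and promoters from RefSeq.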

Additional observations from a re-analysis of the deposited data

Results flagged for a closer look

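Several genes had intervals on opposite sides of 0 in rod-like cells and in another set of cells, with 1 library a group, so the difference was not tested. On the log2 scale of Mettl3-CKO over control, Pde6g was at 0.42 in cluster 1 and 0.89 in cluster 6, against -0.04 in rod-like cells. In cluster 6, Gnb1 was at 0.17, Gngt1 at 0.72 and Sag at 0.65, against -0.16, -0.33 and -0.28. In cone-like cells, Gnb1 was at 0.92, Pde6b at 1.08 and Rcvrn at -0.53, against -0.16, -0.25 and 0.14. Predicted doublets made up 16.4% of Mettl3-CKO cells of cluster 6 and 2.86% of Mettl3-CKO cone-like cells. In cluster 6 without predicted doublets, few cells held most UMIs of Gngt1, Sag and Pde6g. A shift of the whole cluster was not tested.

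Xist lies outside the comparison of the 9 genes. It was seen in 66.3% (62.2 to 70.1) of Mettl3-CKO rod-like cells of at least 4000 UMIs and in 1.43% (0.743 to 2.49) of such control cells, so sex composition and genotype cannot be told apart for these pools.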

How the results depend on the processing

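The median log2 ratio of the 9 genes in rod-like cells was -0.04 and stayed within the counting interval of its middle gene (-0.085 to -0.0044) under scaling by the median of ratios, totals without the cascade genes, means of per-cell CPM, the cell filter of the study, leaving out predicted doublets and resolution 2. It moved to -0.10 with cells of at least 2000 UMIs, -0.11 at resolution 0.5, -0.13 with the 9 genes and other cascade genes among the variable genes, -0.087 with libraries clustered separately and -0.10 where each cell's own markers named it. Chosen after seeing the data, leaving out the low-depth rod-like cluster reversed it to 0.011 and equal weight to the rod-like clusters to 0.029; both are the values of Pde6g, whose own ratio turned likewise. The Cnga1 ratio turned to -0.037 with cells of at least 2000 UMIs, to -0.014 at resolution 0.5, to -0.037 with the 9 genes among the variable genes and to -0.011 where each cell's own markers named it. The cause was not tested. Sag, Gngt1, Gnb1, Pde6b, Pde6a and Rcvrn kept their sign in 16 of 16 settings, Gnat1 in 11, Cnga1 in 12 and Pde6g in 14. A kept sign does not mean an interval away from 0, since that of Rcvrn held 0 in several of these settings. No member passed 1.5-fold with or without the minimum of 100 UMIs.

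The summed level of the 9 genes in nonrod-like cells was 4.92% (control) and 6.75% (Mettl3-CKO) of that in rod-like cells. In this order it was 5.27% and 5.12% with means of per-cell CPM, 4.71% and 7.07% with the cell filter of the study, 3.89% and 7.49% with cells of at least 2000 UMIs, 3.44% and 3.13% without predicted doublets, 4.77% and 7.45% at resolution 0.5, 4.67% and 7.69% with the 9 genes among the variable genes, 4.43% and 6.51% with libraries clustered separately, and 5.09% and 7.23% where each cell's own markers named it. The order of the libraries turned with per-cell means and without predicted doublets. Gnat1 and Pde6a, with 112 to 197 UMIs a library, are limited by depth. No paired analysis was possible because each group held 1 library.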
